A study of Homo sapiens with 4 samples.

Results

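The transcripts described here are those of ATF4 and CHOP (gene DDIT3) and of 8 regulators that act with or under them in the integrated stress response: TRIB3, CHAC1, PPP1R15A, NUPR1, ATF3, ATF5, CEBPB and CEBPG. A gene was taken when a probe set of the array names its symbol and no other, and each of the 10 genes had exactly 1 such probe set, out of 18377 genes in all. MOLM-14 is an established human acute myeloid leukemia line. The cells received either the solvent DMSO (2 arrays) or 2 µM DZNep (3-deazaneplanocin A, an inhibitor of S-adenosylhomocysteine hydrolase that is used to lower EZH2) in 2 arrays, for 24 h. No untreated cells were measured, so the controls carry the solvent and every change below is DZNep against DMSO in 1 cell line. The labels call the samples biological replicates without saying whether the cultures were separate, so p-values cover only the spread between these arrays, which may be technical.

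In the integrated stress response, kinases that sense amino acid shortage, misfolded protein in the endoplasmic reticulum (ER), heme loss or viral RNA phosphorylate the translation factor eIF2. General translation then slows while ATF4 mRNA, whose upstream open reading frames normally hold it back, is translated more. ATF4 is a basic leucine zipper (bZIP) transcription factor that pairs with C/EBP proteins on C/EBP-ATF response elements and switches on genes of amino acid supply and, under lasting stress, CHOP. An expression array measures mRNA and gives neither ATF4 protein nor eIF2 phosphorylation.

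The promoter letters below are shown because some members carry an ATF element or, for DDIT3, a variant of the ER stress element close to the start site. Whether these elements have a part in the changes was not tested. Windows from 250 bases before to 50 bases after each start site, from RefSeq (GRCh38.p14), were found for 9 of the 10 genes and number 18, since some genes have several start sites. Both strands were searched for the C/EBP-ATF core TGATGNAA, the cAMP response element TGACGTCA and the ER stress element, which is CCAAT and CCACG with 9 free bases between them. A variant with CCAAT, 10 free bases and CACG was added after the DDIT3 letters had been seen. Each stretch reads 5′ to 3′ toward its gene, ends or lies before the start site, and has its match in capitals.
DDIT3 (chr12:57520518-57520767, minus strand, ER stress element variant on the other strand): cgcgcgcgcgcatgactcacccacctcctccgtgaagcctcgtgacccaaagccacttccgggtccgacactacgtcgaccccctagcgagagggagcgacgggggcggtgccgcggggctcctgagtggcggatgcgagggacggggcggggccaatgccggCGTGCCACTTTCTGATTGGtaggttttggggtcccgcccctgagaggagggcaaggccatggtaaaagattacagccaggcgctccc
CHAC1 (chr15:40953221-40953470, plus strand, C/EBP-ATF core on the other strand): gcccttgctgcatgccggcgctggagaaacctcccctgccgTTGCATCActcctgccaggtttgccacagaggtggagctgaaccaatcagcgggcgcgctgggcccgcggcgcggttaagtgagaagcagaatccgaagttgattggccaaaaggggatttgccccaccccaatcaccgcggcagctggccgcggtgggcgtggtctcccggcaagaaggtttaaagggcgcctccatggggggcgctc
CEBPG (chr19:33374060-33374089, plus strand, C/EBP-ATF core): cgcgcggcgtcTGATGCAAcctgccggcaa
ATF3 (chr1:212565167-212565286, plus strand, C/EBP-ATF core): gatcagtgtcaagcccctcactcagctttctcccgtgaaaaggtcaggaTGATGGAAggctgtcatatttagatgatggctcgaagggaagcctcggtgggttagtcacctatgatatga
PPP1R15A (chr19:48872301-48872420, plus strand, cAMP response element): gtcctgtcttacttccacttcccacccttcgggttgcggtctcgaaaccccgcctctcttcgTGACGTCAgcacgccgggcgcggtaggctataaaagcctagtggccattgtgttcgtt

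The C/EBP-ATF core was in 3 of the 18 member windows, and 3.62% of the 35116 windows of all genes hold it. It started 209 bases before the start site in CHAC1, 191 bases before in ATF3 and 42 bases before the second of the start sites of CEBPG. The cAMP response element was in the window of PPP1R15A, 58 bases before the start, and in 1.85% of all windows. The ER stress element was in none of the 18 member windows and in 0.0769% of all, and its variant was in both overlapping DDIT3 windows and in 0.165% of all. The variant was added after the DDIT3 letters had been seen, so its match there was given in advance. None of these motifs was in the windows of ATF4, ATF5, CEBPB or TRIB3. These are matches of letters in short windows and say nothing about binding.

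DDIT3, TRIB3 and CHAC1 fell strongly with DZNep, ATF4 mRNA rose slightly, and the other 6 regulators did not pass the test. Of the 10 genes, 3 were called lower and 1 higher (limma, Benjamini-Hochberg adjusted p under 0.05 over all genes). Among all 18377 genes tested, 6.68% were called lower and 3.62% higher, 10.3% in all. These shares depend on brightness: 10.2% were called lower without the dimmest 25% of genes and 16.1% without the dimmest 50%. At least 2-fold falls were called for the same 3 members and for 0.658% of all genes. Both DZNep arrays lay below both DMSO arrays for 6 members and above them for 1, against 23.9% and 25.9% of all genes. The median change of the members was -0.31 on the log2 scale and that of all genes 0.02.

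**Figure D1:**
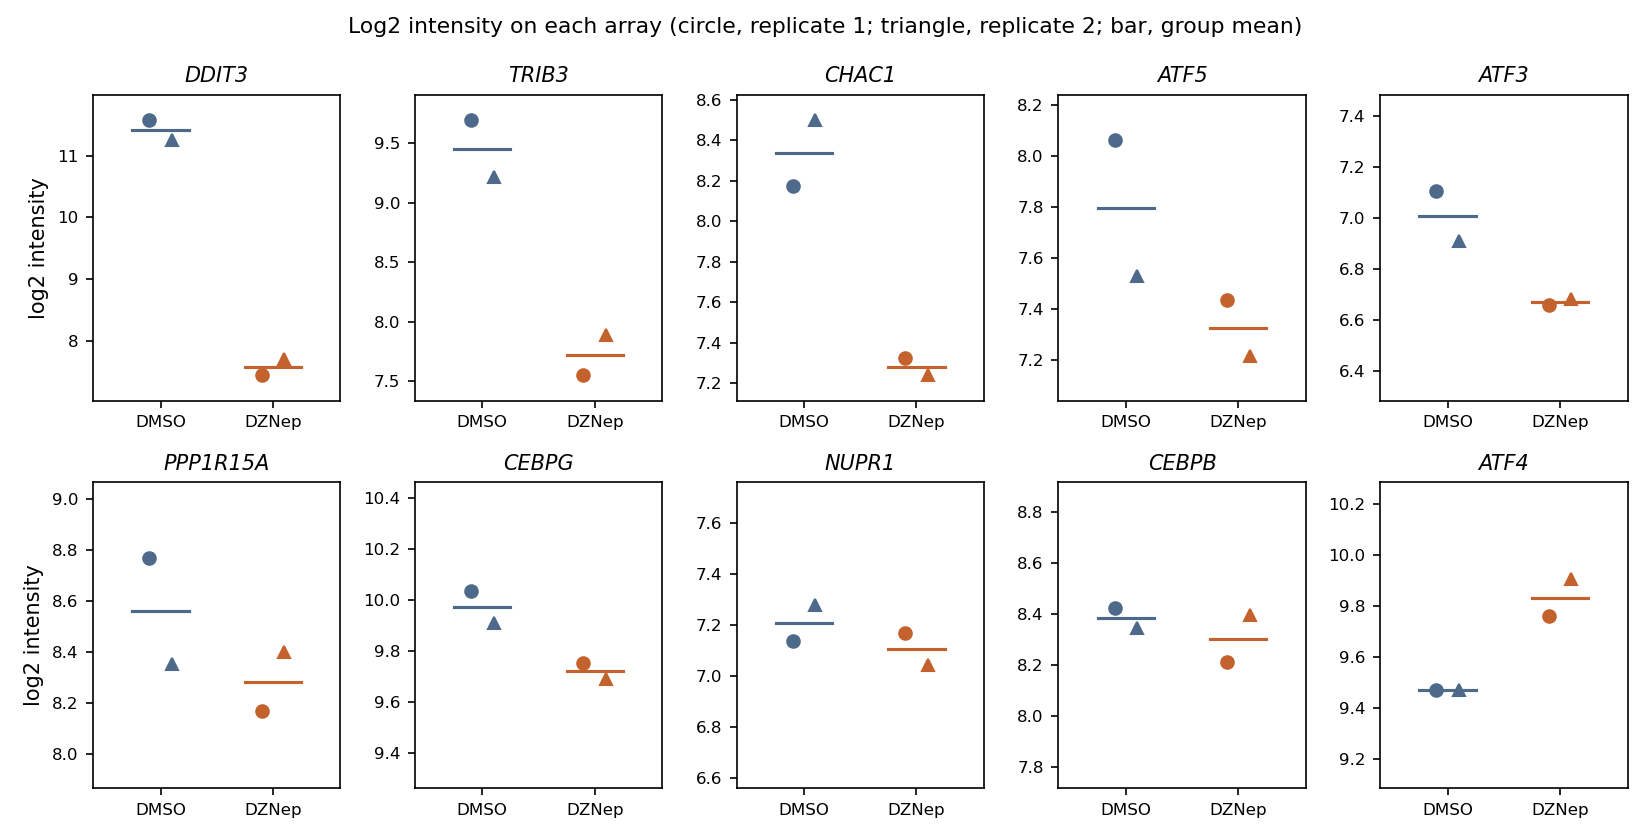
Log2 intensity (vertical axis, its own range in each panel) of the 10 regulators on the 2 DMSO and the 2 DZNep arrays, with circles for replicate 1, triangles for replicate 2 and bars for group means. DDIT3, TRIB3 and CHAC1 separate widely, ATF4 is the only panel with DZNep on top, and the groups overlap for PPP1R15A, NUPR1 and CEBPB.

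CHOP, encoded by DDIT3, is a bZIP factor that dimerises with C/EBP proteins and is linked to cell death under lasting stress. The DMSO arrays gave deposited intensities of 3045 and 2444 for it and the DZNep arrays 173 and 208, which is 11.57 and 11.26 against 7.44 and 7.70 on the log2 scale. The groups lay 3.55 log2 units apart at their nearest arrays, many times the differences of 0.32 and -0.26 between the replicates of a group. The fall was 14.4-fold (limma log2 change -3.84, 95% interval -4.15 to -3.54, adjusted p = 4.66e-06), and it ranked first of 18377 genes both by size and by p. Leaving out each array in turn gave -4.00 to -3.69.

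TRIB3 is a pseudokinase that is induced by ATF4 and CHOP and that binds ATF4 and dampens its activity. It fell next most among the members, with a log2 intensity of 9.69 and 9.21 with DMSO and 7.55 and 7.89 with DZNep, so the groups did not overlap. The fall was 3.33-fold, with a log2 change of -1.73 (SE 0.16, limma adjusted p = 0.00033), rank 16 of all genes from the lowest, and it lay between -1.97 and -1.49 in fits without 1 array.

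CHAC1 encodes an enzyme that breaks down glutathione and is a common readout of ATF4 activity. Log2 intensities of 8.18 and 8.50 with DMSO and of 7.32 and 7.24 with DZNep gave a 2.08-fold fall, a log2 change of -1.06 (SE 0.12, limma adjusted p = 0.00081) and rank 98 from the lowest. Of the 3 genes that fell, CHAC1 alone had a higher value on DMSO replicate 2 than on DMSO replicate 1. The 95% intervals of DDIT3, TRIB3 (-2.11 to -1.36) and CHAC1 (-1.33 to -0.78) did not overlap one another. Against a 1.5-fold change as the null (limma treat), CHAC1 was no longer called (adjusted p = 0.190).

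ATF4 mRNA went the other way. Both DMSO arrays gave a log2 intensity of 9.47 and the DZNep arrays 9.76 and 9.90, a 1.29-fold rise with a log2 change of 0.36 (95% interval 0.14 to 0.58, limma adjusted p = 0.047). The DMSO arrays differed by less than 0.01 (SD 0.0023, n = 2), while the DZNep arrays differed by 0.14. This call was lost without any 1 array, with values of 0.29 to 0.43 and adjusted p of 0.067 to 0.488, and under median centring (adjusted p = 0.084). It also ended with 16 subtracted from all intensities (adjusted p = 0.099) and with array weights (0.0537).

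ATF4 was then set against each regulator on the same array, which cancels any scaling between arrays in the difference itself. For all 9 regulators the difference to ATF4 was lower on both DZNep arrays than on both DMSO arrays, as it was for 83.8% of all genes, so this order is near the background. With the variances of both genes added, a test chosen after the data were seen, all 9 changes were below that of ATF4 (adjusted p of 1.46e-05 to 0.0438). Each variance came from the main fit of that gene alone. The pairing on the array did not enter, and scaling between arrays stays in these variances. The same test called 31.3% of all genes lower than ATF4 and 0.577% higher. DDIT3, TRIB3 and CHAC1 stayed called without any 1 array (limma-based adjusted p at most 0.00846). The other 6 lost the call without at least 1 array. Without DZNep replicate 2, ATF3 (adjusted p = 0.0906), ATF5 (0.0823) and CEBPG (0.223) were no longer called. PPP1R15A kept it only without DMSO replicate 2, NUPR1 only without DMSO replicate 1, and CEBPB missed it whichever of the 4 arrays was left out (0.0568 to 0.287). With DZNep replicate 2 left out, the test called 6.43% of all genes lower than ATF4. The change of ATF4 was rank 772 from the highest of all genes, and its error is shared by every one of these comparisons. The differences in change were -4.21 for DDIT3 (95% interval -4.58 to -3.83), -2.10 for TRIB3 (-2.53 to -1.66) and -1.42 for CHAC1 (-1.77 to -1.07). For the 6 regulators that were not called, they were between -0.83 (ATF5) and -0.44 (CEBPB). A limma fit on the array differences, planned first, gave 60% of all genes as lower than ATF4 and 0.952% as higher. Its p-values are not given since the same 4 ATF4 values enter every gene and made its prior degrees of freedom infinite.

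**Figure D2:**
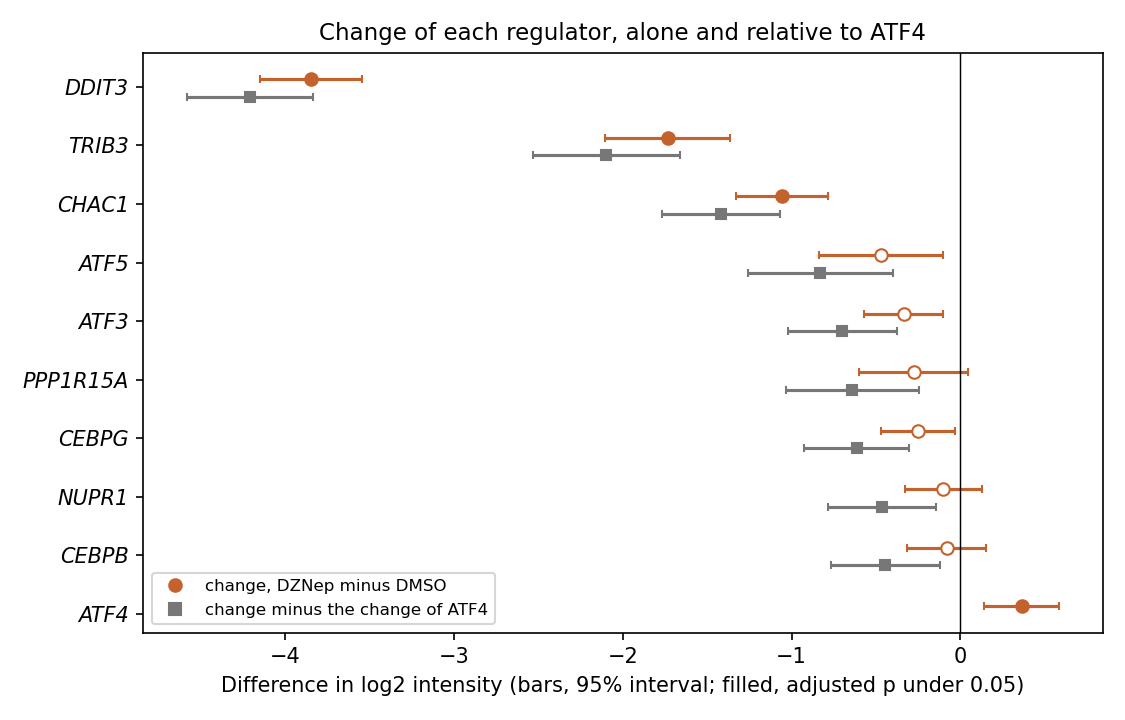
Change in log2 intensity, DZNep minus DMSO (circles), and the same change minus the change of ATF4 (squares), for each regulator with its 95% interval; filled symbols have an adjusted p under 0.05. DDIT3, TRIB3 and CHAC1 stand apart on the left, the open circles of 6 regulators lie between -0.47 and -0.08, and ATF4 at 0.36 is the only circle right of 0.

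Apart from DDIT3, the bZIP partners and relatives of ATF4 among the members did not pass the test. ATF3, a stress-induced repressor, had log2 intensities of 7.10 and 6.91 with DMSO and 6.66 and 6.68 with DZNep, a log2 change of -0.34 (95% interval -0.57 to -0.10, limma adjusted p = 0.075). ATF5, whose mRNA is translated under stress much like that of ATF4, had 8.06 and 7.53 with DMSO and 7.43 and 7.22 with DZNep, a log2 change of -0.47 (95% interval -0.84 to -0.10, limma adjusted p = 0.115). The DMSO arrays of ATF5 differed by 0.53, more than the mean change. Both genes had groups that did not overlap, by 0.23 for ATF3 and 0.09 for ATF5.

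CEBPG, a C/EBP protein without an activation domain of its own that dimerises with ATF4, had 10.04 and 9.91 with DMSO and 9.75 and 9.69 with DZNep. Its log2 change of -0.25 had a 95% interval of -0.47 to -0.03 (limma adjusted p = 0.158), and passed only with an intensity trend in the variances (0.0488). CEBPB, which binds the same elements and drives myeloid and inflammatory genes, had overlapping groups, at 8.42 and 8.34 with DMSO and 8.21 and 8.39 with DZNep. Its log2 change was -0.08 (95% interval -0.31 to 0.15, limma adjusted p = 0.742), and 0.01 without DZNep replicate 1.

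PPP1R15A and NUPR1 also had overlapping groups. PPP1R15A, or GADD34, is the stress-induced subunit that brings a phosphatase to eIF2 and so ends the response. It had log2 intensities of 8.77 and 8.35 with DMSO and 8.17 and 8.40 with DZNep, a log2 change of -0.28 (95% interval -0.60 to 0.05, limma adjusted p = 0.315). NUPR1, a small chromatin protein induced by stress, had 7.14 and 7.28 with DMSO and 7.17 and 7.04 with DZNep, a log2 change of -0.10 (95% interval -0.33 to 0.13, adjusted p = 0.660). The intervals of ATF3, ATF5, CEBPB, CEBPG, NUPR1 and PPP1R15A all overlapped, so their order is not resolved.

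The size of several of these changes depended on a single array. Without DMSO replicate 2, ATF5 had -0.74, ATF3 -0.44 and PPP1R15A -0.48. Without DMSO replicate 1, the same genes had -0.20, -0.24 and -0.07. ATF5 had -0.58 without DZNep replicate 1.

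**Figure D3:**
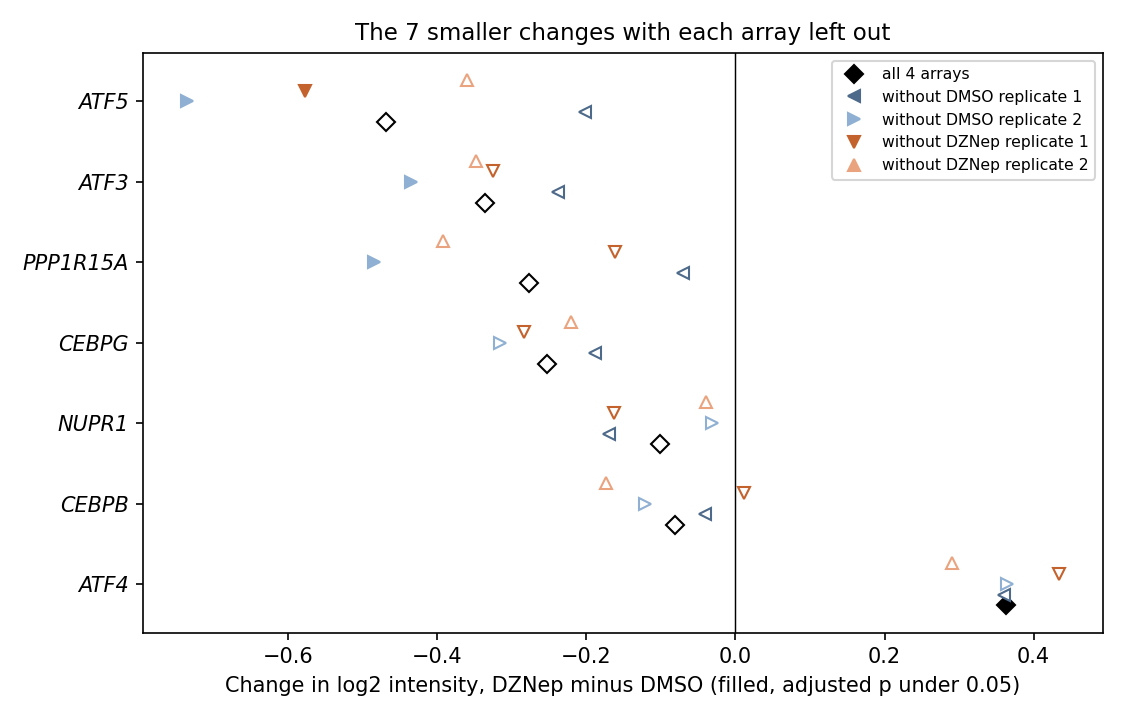
Change in log2 intensity, DZNep minus DMSO (horizontal axis), of the 7 members with the smaller changes, from all 4 arrays (diamonds) and with each array left out (triangles); filled symbols have a limma adjusted p under 0.05. ATF5, ATF3 and PPP1R15A shift to between -0.74 and -0.44 without DMSO replicate 2 and to between -0.24 and -0.07 without DMSO replicate 1, and ATF4 stays between 0.29 and 0.43.

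The 2 DMSO arrays also differed from each other in some of these gene lists. DMSO replicate 1 was above DMSO replicate 2 for 7 of the 10 members, with a median difference of 0.16, against 47.4% of all genes and a median of -0.01. The differences were 0.53 for ATF5, 0.48 for TRIB3, 0.41 for PPP1R15A and 0.32 for DDIT3, and -0.32 for CHAC1. Among 31 ATF4 target genes of amino acid supply and tRNA charging, 28 were higher on DMSO replicate 1 (median 0.18), as were 22 of 25 genes of the ATF6 and IRE1 arms (median 0.25). The other lists had smaller medians. DMSO replicate 1 was the higher for 12 of 15 genes in the list of factors that modify or degrade ATF4 or CHOP protein (median 0.05). That list also holds genes of mRNA methylation. DMSO replicate 1 was also the higher for 16 of 22 genes of the eIF2 machinery (0.06) and 22 of 34 other bZIP factors (0.10). It was the higher for 12 of 20 target genes of signalling, redox and death (0.14) and 6 of 12 paralogs (0.03). Between the DZNep arrays the medians of the members, the amino acid list and the ATF6 and IRE1 list were -0.08, -0.03 and -0.01. What part this difference has in the changes above was not tested, beyond leaving out each array.

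Most genes that ATF4 is known to switch on for amino acid supply fell, and so did a part of its other targets and those of CHOP. Of 31 measured genes of amino acid synthesis, transport and tRNA charging, 29 fell and none rose, 93.5% against 6.68% of all genes, with a median log2 change of -0.95. ALDH1L2, a mitochondrial folate enzyme, went from 10.03 ± 0.35 with DMSO to 6.98 ± 0.03 with DZNep (SD, n = 2). AARS1, the alanyl-tRNA synthetase, had 12.09 and 11.66 with DMSO and 9.42 and 9.53 with DZNep. PHGDH and PSAT1, the first steps of serine synthesis, had log2 changes of -2.26 and -2.20. Of 20 target genes of signalling, redox and death, 11 fell and 1 rose, with a median of -0.47. These are 55% and 5%, against 6.68% and 3.62% of all genes, so the share that rose is near the background. Of the 31 genes 27, and of the 20 genes 12, were brighter than 75% of all genes. Those of the 20 that fell included the ER ubiquitin-pathway protein HERPUD1 at -1.30 and the mitochondrial protease LONP1 at -1.14. The mTORC1 inhibitor DDIT4 at -1.03 and the stress sensor SESN2 at -0.75 were also among them. The gene that rose was the receptor NOTCH1, at 0.50, named after its value was seen, which missed the threshold when DZNep replicate 1 was absent (limma adjusted p = 0.061).

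Upstream of ATF4, part of the eIF2 machinery was lower. Of 22 measured kinases and their regulators, eIF2 and eIF2B subunits and phosphatase parts, 7 fell and none rose (31.8%, against 6.68% of all genes). The median log2 change was -0.16 against 0.02 over all genes. Of the 22 genes, 16 were brighter than 75% of all genes. Without the dimmest 50% of genes, 16.1% of the rest were called lower, so 6.68% is a low background for this list. DNAJC3, an ER cochaperone that inhibits the eIF2 kinases PERK and PKR, fell 3.51-fold, from 10.81 and 10.41 to 8.82 and 8.77. EIF2AK3, which encodes PERK, the kinase of ER stress, fell 2.23-fold, from 8.90 and 8.55 to 7.47 and 7.67. The eIF2 subunit EIF2S2 had -0.55, and EIF2AK2, the kinase PKR, had -0.50, a call that ended without DMSO replicate 1 (limma adjusted p = 0.0515) or DZNep replicate 1 (0.119). Only 3 of the list were called lower without DZNep replicate 1 and 4 without DZNep replicate 2, against 3.99% and 4.6% of all genes. Of the other kinases, named after their values were seen, EIF2AK4 (GCN2, the sensor of uncharged tRNA) had 0.09 and EIF2AK1 (HRI, the heme sensor) -0.08, and neither passed (adjusted p = 0.719 and 0.727).

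Factors that modify or degrade ATF4 or CHOP protein did not pass the test. Their list also holds genes of mRNA methylation (METTL3, YTHDF1, ALKBH5 and FTO). None of the 15 measured genes was called in either direction by limma, 1 had an unadjusted p under 0.05, and the median log2 change was 0.03. EP300, an acetyltransferase that stabilises ATF4, had 0.27 (limma adjusted p = 0.208), and was called at 0.42 without DMSO replicate 1 (0.040). BTRC, the ubiquitin ligase subunit that targets ATF4, had 0.18 (adjusted p = 0.308).

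The parallel arms of the unfolded protein response, run by ATF6 and IRE1, were mostly lower with DZNep too. Of 25 genes of the ATF6 and IRE1 arms, 19 fell and none rose (76%, against 6.68% of all genes). The median log2 change was -0.92 against 0.02 over all genes, and 16 of the 25 were brighter than 75% of all genes. HYOU1, an ER chaperone, had 10.92 and 10.33 with DMSO and 8.26 and 8.34 with DZNep, a 5.02-fold fall. HSPA5 (BiP), PDIA4 and CRELD2 had log2 changes of -2.06, -2.06 and -1.94. The sensors themselves, named after their values were seen, had 0.12 for ATF6 and -0.06 for ERN1 (IRE1), and neither passed (limma adjusted p = 0.602 and 0.785).

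**Figure D4:**
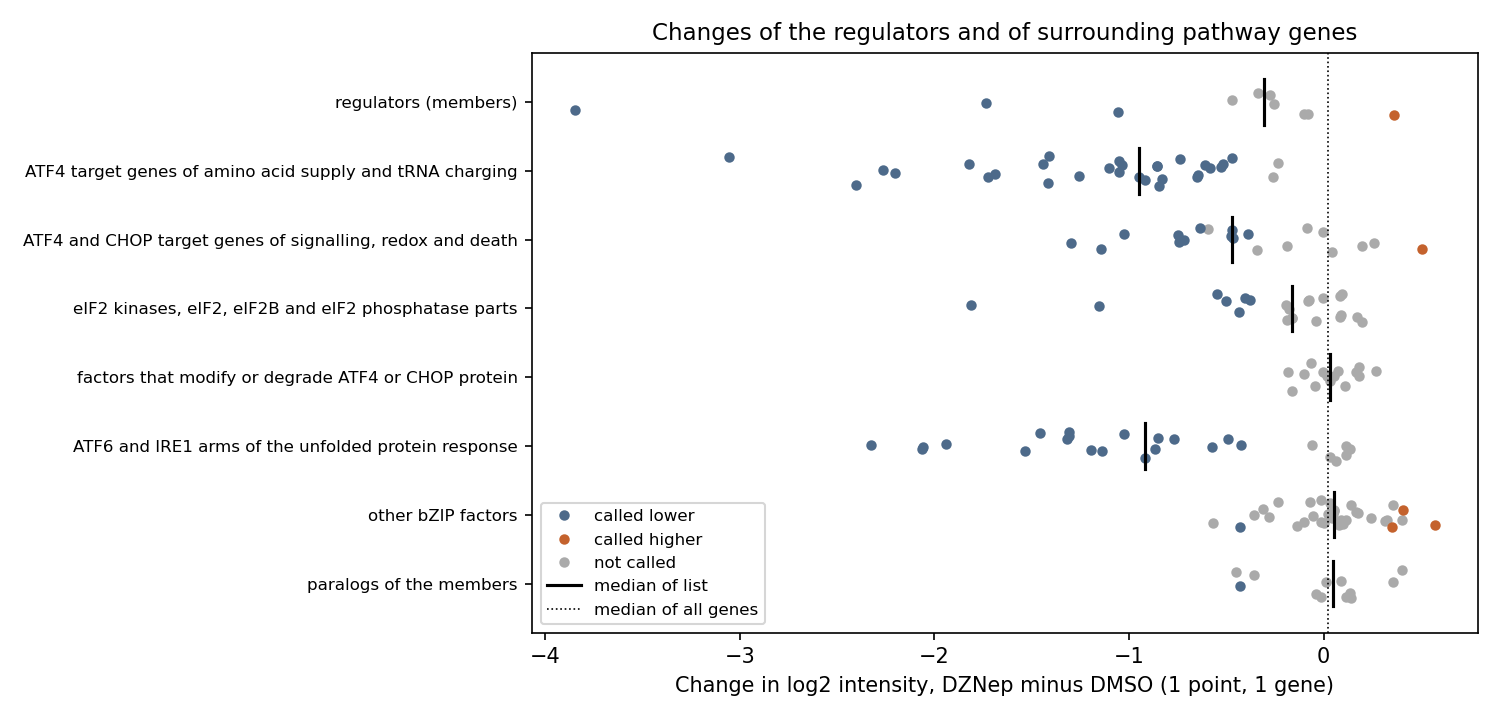
Change in log2 intensity, DZNep minus DMSO (horizontal axis), of each member and of each gene in 7 surrounding lists; colours give limma calls at an adjusted p of 0.05, black bars list medians and the dotted line the median of all genes at 0.02. The target lists and the ATF6 and IRE1 arms lie mostly below 0, while the other bZIP factors and the paralogs centre near 0.05.

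Other bZIP factors and the paralogs of the members had medians near that of all genes, at 0.05 each. Of 34 other bZIP factors, 3 rose and 1 fell, against 3.62% and 6.68% of all genes. FOSB rose by 0.57 on the log2 scale (limma adjusted p = 0.0052), JUN by 0.41 and FOS by 0.35. The calls of JUN (adjusted p = 0.031) and FOS (0.045) ended under median centring (0.060 and 0.080), JUN also without DMSO replicate 2 or either DZNep array (0.064 to 0.315), and FOS without any 1 array (0.053 to 0.411). JDP2, a repressor of the same family as ATF3, fell by 0.43, a call that ended without either DZNep array (0.064 and 0.261). It was the 1 gene called among 12 paralogs. TRIB1 and TRIB2, the relatives of TRIB3, had -0.04 and 0.01, PPP1R15B, the constitutive counterpart of PPP1R15A, had 0.09, and CHAC2 had -0.45 (limma adjusted p = 0.0505), all named after their values were seen.

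Genes whose 4 array values most resembled those of DDIT3 came from the lists above. By the root mean square difference of values centred on each gene's own mean, the nearest genes outside the members were ALDH1L2 at 0.42 log2 units, AARS1 at 0.72, HYOU1 at 0.77 and PHGDH at 0.80. None came within 0.1. The pattern of ATF4 was common: 1223 genes lay within 0.1 of it, led by RGS12 at 0.0055, SRSF8 at 0.0089, SLC45A3 at 0.011 and PTGR3 at 0.011. Likeness over 4 arrays is a description only.

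Over all arrays, the median log2 intensity was between 6.99 and 7.07, and the SD of the log2 difference over all genes was 0.20 between the DMSO arrays and 0.14 between the DZNep arrays. Of 9 monocytic and myeloid markers 4 rose (44.4%, against 3.62% of all genes) and none fell. Outside the myeloid list the only marker called was the fibroblast gene DCN, named after its value was seen, at 0.36 (limma adjusted p = 0.045). The changes of the 9 myeloid markers ran from -0.38 to 1.45. Their summed level was 12.97 to 13.02 with DMSO and 13.34 to 13.40 with DZNep on the log2 scale. This sum weighs bright probe sets most, and the brightest marker had a mean of 12.50. The part of these markers in the regulator changes was not tested. None of the 6 T and NK, 4 B cell and 4 erythroid markers was called. Fewer cells expressing a gene and less RNA per cell cannot be told apart in these bulk samples. Levels of different probe sets are not comparable, so no order of abundance among the members is given.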

How the data were processed

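Expression was measured on 4 Affymetrix whole-transcript arrays, from 200 ng of total RNA each, per the labels' protocols. The authors deposited a linear intensity for each probe set and array, made with RMA according to the submitters' processing notes. Its version is not stated there. The lowest intensity was 18.1 to 18.5 on every array. A constant added to all values would shrink the changes of dim genes, and whether one was added is unknown.

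Here log2 was taken, gene names came from the platform annotation (19310 of 28869 with 1 symbol, 1752 with several, 7807 with none), and the probe set with the highest mean was kept for each of 18377 genes. The test was limma 3.58.1 under R 4.3.3 (lmFit, eBayes, group as the only term, two-sided, 2 residual and 7.18 prior degrees of freedom), with Benjamini-Hochberg adjustment over all genes and a threshold of 0.05. An exact permutation test of 2 arrays against 2 cannot go below 0.333. The code was tested on simulated data. Sequences are from RefSeq.

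The members and gene lists were chosen with earlier results of these data known, so they are not independent evidence. Named from each pathway list were up to 4 called genes with the largest change, or the 2 with the smallest p where none was called, and for DDIT3 and ATF4 the 4 nearest profiles. Of the genes named outside this rule the text says so. Alternatives were a replicate block, 2 filters on dim genes, 3 normalizations, a subtracted constant, variance trends, array weights, probe set rules, treat and leaving out each array. Precision is limited by having 4 arrays.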

Additional observations from a re-analysis of the deposited data

How the results depend on the processing

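The falls of DDIT3 and TRIB3 kept their direction and call under all 18 alternatives, at -4.00 to -3.69 and -1.97 to -1.49. CHAC1 kept its call under all but treat against a 1.5-fold change (-1.06, adjusted p = 0.190), with -1.22 to -0.90 without 1 array. The call of ATF4 ended under the replicate block (0.36), median centring (0.33), 16 subtracted (0.37), array weights (0.36), treat (0.36) and without any 1 array (0.29 to 0.43), and under each of these 0 members were called higher. CEBPG was called with an intensity trend (-0.25), ATF5 under the replicate block (-0.47). The replicate block had infinite prior degrees of freedom and gave every gene the same variance. Calls gained or lost under it therefore do not reflect a gene's own spread. Without 1 array, ATF5 ran from -0.74 to -0.20, ATF3 from -0.44 to -0.24, PPP1R15A from -0.48 to -0.070 and CEBPB from -0.17 to 0.011, the last a change of sign in a gene that was not called, and 3 to 6 members were called lower.

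Replicate numbers do not pair the samples in the labels, and same-numbered arrays deviated against each other (r = -0.22 across genes). The crossed pairing, added after seeing the data, called 5 members lower, ATF3 at -0.34 and ATF5 at -0.47 among them. Of all genes it called 9.2% lower and 5.63% (1034 genes) higher, against 6.68% and 3.62% in the main fit. Over all genes, treat called 37 higher and 73 lower, and leaving out 1 array gave 336 to 776 higher and 734 to 1662 lower, against 665 and 1227.

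Relative to ATF4, with the variances of both genes added, DDIT3, TRIB3 and CHAC1 were called under all 17 alternatives run (treat was not run). CEBPB was not called under the replicate block (-0.44, adjusted p = 0.0623), median centring (-0.44), 16 subtracted (-0.46) or array weights (-0.44). NUPR1 was not called under the replicate block (-0.46) or 16 subtracted (-0.48), nor PPP1R15A with 16 subtracted (-0.66). Without 1 array the values ran from -0.80 to -0.60 for ATF3, -1.10 to -0.56 for ATF5, -0.49 to -0.40 for CEBPB, -0.72 to -0.51 for CEBPG, -0.85 to -0.43 for PPP1R15A and -0.60 to -0.33 for NUPR1, and 3 to 7 regulators were called. Under the replicate block and without either DZNep array, the prior degrees of freedom of limma were infinite. Every gene had the same variance in these fits, and their p-values do not reflect a gene's own spread. The planned fit, whose p-values are too small and say nothing about stability, no longer passed its threshold under treat for ATF3 (-0.70), ATF5 (-0.83), CEBPB (-0.44), CEBPG (-0.61), PPP1R15A (-0.64) and NUPR1 (-0.46), and for NUPR1 without DMSO replicate 2 or DZNep replicate 2. ATF3 and NUPR1 are absent when the dimmest 50% of genes are left out. The cause of these changes was not tested.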
